A study of Mus musculus with 18 samples.

Results

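The 10 genes Btbd11, Psrc1, Pard6g, Mark3, Mtif3, Orai2, Dcxr, Rap2b, Zmat3 and Cd276 were chosen by their measured values in the same arrays that are described here: they had been seen to be higher in 4-hydroxytamoxifen (4-OHT) treated cells carrying an inducible p53, and they are less often discussed than the classical p53 targets. They are 10 of the 18194 genes named on the array (Affymetrix Mouse430_2), which holds 19 probe sets for them: 5 genes with 1 probe set, 2 with 2, 2 with 3 and 1 with 4. A probe set is a group of short probes read as 1 value, and each gene was led by its probe set with the highest mean signal. The 10 leading probe sets all lay in the upper 60% of probe sets by mean signal, and so did 18 of the 19. The question was whether each gene was higher with 4-OHT in the p53ER cells in particular, or only when those cells were set against their 0 h arrays.

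The cells were TKO, a mouse cell line that the labels call telomere dysfunctional, grown in DMEM medium with serum. One arm expressed p53ER, a fusion of p53 to the estrogen receptor that becomes functional when 4-OHT is added, and the other arm was uninfected. Each arm was sampled at 0 h, after 4 h with vehicle and after 4 h with 100 nM 4-OHT, with 3 arrays per group and 18 arrays in 6 groups. All groups share the TKO background. No group was infected with an empty vector, which means that infection and fusion cannot be told apart between the arms, and the labels do not say how many clones carry p53ER or whether replicates are separate cultures. P-values therefore measure only the spread between these samples, which may be technical.

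As background, p53 is a transcription factor held at low activity by the ubiquitin ligase Mdm2, which is itself one of its targets. Active p53 binds DNA as a tetramer at pairs of 10-base elements and raises genes of cell cycle arrest, such as the cyclin kinase inhibitor Cdkn1a, and of cell death, such as Pmaip1. In a fusion to the estrogen receptor's ligand-binding part the protein is kept inactive until the ligand arrives, so genes that respond within hours are candidates for direct targets. The 10 genes do different things. Zmat3 is a zinc finger protein that binds RNA and Btbd11 has a BTB domain and ankyrin repeats. Pard6g is a scaffold of the cell polarity complex, Mark3 is a kinase of microtubule-associated proteins, and Psrc1 binds spindle microtubules. Orai2 is a subunit of store-operated calcium channels, Rap2b a small GTPase of the Ras family and Cd276 a surface protein of the B7 family of immune ligands. Dcxr reduces L-xylulose and dicarbonyl compounds, and Mtif3 is an initiation factor of mitochondrial translation.

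The deposited signals were scaled so that all arrays had the same trimmed mean, and a level is given here as log2 of the scaled signal plus an offset of 3.93. Before scaling the trimmed means ran from 47.5 to 148, a 3.12-fold range, and each array's median r to the others ran from 0.910 to 0.943. On the first principal component (13.0% of the variance) 3 arrays lay apart, which were uninfected 0 h replicate 2, p53ER vehicle replicate 1 and p53ER 0 h replicate 3. The second component (11.3%) separated replicate 3 of every group from the others. All 8 mesenchymal markers lay in the upper 60% of probe sets, with Vim at 13.76 and Fn1 at 13.24. So did 5 of 7 epithelial, 3 of 5 blood, 3 of 5 endothelial, 2 of 4 muscle and 5 of 5 neural markers, whose brightest were Epcam at 6.74, Csf1r at 6.25, Kdr at 5.83, Ckm at 5.40 and Sox10 at 5.75. The defining markers Cdh1 (2.87), Ptprc (3.10) and Pecam1 (2.88) were near the offset. The reference target Mdm2 rose with 4-OHT in p53ER cells, by 2.92 against vehicle (SE 0.40, limma adjusted p = 0.0187) and by 2.91 against 0 h (adjusted p = 0.0131), and its difference in uninfected cells was -0.27. Cdkn1a was 2.19 higher against vehicle in p53ER cells (SE 0.49) without passing the threshold of 0.05 (limma adjusted p = 0.718), and -0.38 in uninfected cells.

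The 10 genes fell into several patterns. The leading probe set had its highest group mean in 4-OHT treated p53ER cells for 8 of the 10 genes and 16 of the 19 probe sets. The exceptions among the genes were Mtif3 and Cd276, so these 2 did not carry the description by which the set was named when read against vehicle. The counts of highest means use the arrays that chose the genes, and the matching share over all probe sets was not counted. Against vehicle the log2 difference in p53ER cells ran from -0.30 for Cd276 to 1.17 for Btbd11 with a median of 0.65, beside a median of 0.01 over all genes on the array. In uninfected cells the median of the same difference was 0.04, beside 0.00 over all genes. Against 0 h the median was 0.85 in p53ER cells and 0.15 in uninfected cells, and vehicle alone stood 0.21 above 0 h in p53ER cells, with all-gene medians of -0.02, -0.10 and -0.04. The p53ER differences are those the genes were chosen on, so they are given as a description, and the comparisons in p53ER cells share their arrays with each other.

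**Figure D1:**
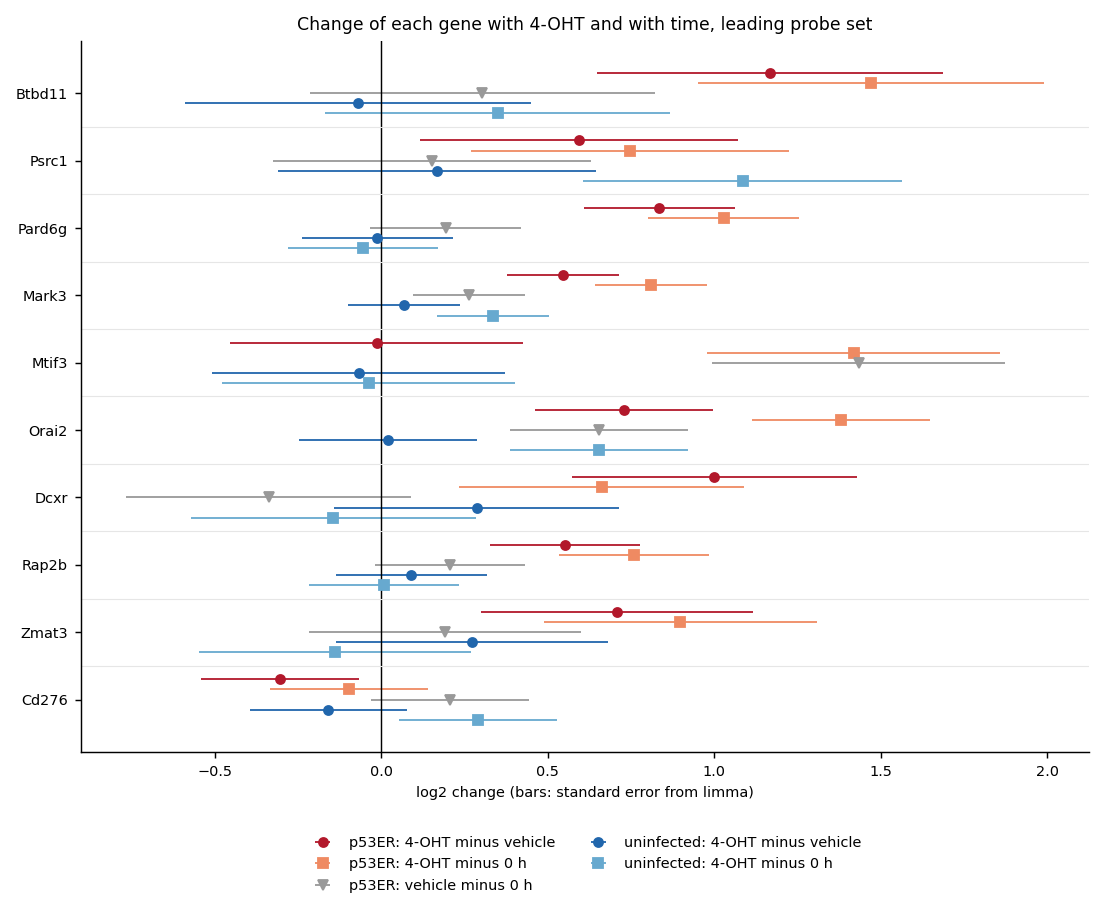
Log2 change of the leading probe set of each gene (x axis, log2 units) in 5 comparisons, with bars for the standard error from limma. Btbd11, Pard6g, Mark3 and Orai2 lie to the right of 0 with 4-OHT in p53ER cells and within 0.1 of it for 4-OHT against vehicle in uninfected cells, Mtif3 lies right of 0 against 0 h in p53ER cells, with 4-OHT and with vehicle alike, and Cd276 lies left of 0 against vehicle.

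By the call used across the array, a limma fit over all probe sets of the array with a Benjamini-Hochberg adjusted p under 0.05, no member probe set passed in p53ER cells against vehicle, where 4 probe sets passed in all (0.00887%), nor against 0 h, where 7 passed (0.0155%). The unadjusted p was under 0.05 for 7 of the 19 member probe sets and 1847 of all against vehicle, and for 11 members and 1875 of all against 0 h. With the replicate number as a block, 24 probe sets passed against 0 h (0.0532%), of which 4 were members: both brighter probe sets of Btbd11, the leading one of Pard6g and the leading one of Orai2. Since these contrasts chose the members, nothing is read from those counts. On simulated data of this layout the fit recovered 0.8% of probe sets changed by 0.5 on the log2 scale, 22.4% of those changed by 1 and 66.6% of those changed by 2. In that setting changes of the size seen for these genes were thus mostly not called. The simulation had 200 changed probe sets, independent noise, no replicate effect and no arrays that lay apart. Its rates are averages over probe sets of differing spread, and they need not hold for these arrays.

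RefSeq promoters are shown for Btbd11, which had the largest difference, and for Cdkn1a as a reference with known p53 sites. Also shown are Rap2b, Orai2 and Psrc1, the searched members that held a p53 half-site, an E-box or the cell cycle element. Each sequence runs from 250 bases before to 50 after the annotated start on GRCm38.p6, which is 300 bases. Both strands were searched for the p53 half-site (1 of the paired 10-base elements), its CATG core, the E-box CACGTG, the CCAAT box, the GC box GGGCGG and the cell cycle element TTTGAA or TTCGAA. The CATG core can lie inside a p53 half-site. Capitals mark p53 half-sites in Cdkn1a and Rap2b, E-boxes in Orai2 and the cell cycle element in Psrc1, and Btbd11 has none of these 3 kinds.
Cdkn1a, chr17:29090729-29091028, plus strand: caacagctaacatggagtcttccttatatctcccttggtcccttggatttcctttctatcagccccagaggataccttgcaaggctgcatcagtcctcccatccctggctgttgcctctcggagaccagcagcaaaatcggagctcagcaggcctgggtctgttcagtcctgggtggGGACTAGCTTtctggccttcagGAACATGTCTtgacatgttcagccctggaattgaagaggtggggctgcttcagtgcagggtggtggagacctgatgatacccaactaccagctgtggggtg
Rap2b, chr3:61364257-61364556, plus strand: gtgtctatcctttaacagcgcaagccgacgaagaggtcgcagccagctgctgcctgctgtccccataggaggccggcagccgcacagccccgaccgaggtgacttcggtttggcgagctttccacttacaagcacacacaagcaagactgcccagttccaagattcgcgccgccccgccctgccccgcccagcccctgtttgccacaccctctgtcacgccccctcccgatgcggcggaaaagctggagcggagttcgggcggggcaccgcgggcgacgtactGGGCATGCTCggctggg
Btbd11, chr10:85386564-85386863, plus strand: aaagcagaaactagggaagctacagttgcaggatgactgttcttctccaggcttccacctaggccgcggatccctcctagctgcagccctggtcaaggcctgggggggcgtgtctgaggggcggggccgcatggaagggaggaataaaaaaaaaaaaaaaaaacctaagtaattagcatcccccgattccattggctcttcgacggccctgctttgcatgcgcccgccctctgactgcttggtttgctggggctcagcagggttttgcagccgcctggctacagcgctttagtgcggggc
Orai2, chr5:136170607-136170906, minus strand: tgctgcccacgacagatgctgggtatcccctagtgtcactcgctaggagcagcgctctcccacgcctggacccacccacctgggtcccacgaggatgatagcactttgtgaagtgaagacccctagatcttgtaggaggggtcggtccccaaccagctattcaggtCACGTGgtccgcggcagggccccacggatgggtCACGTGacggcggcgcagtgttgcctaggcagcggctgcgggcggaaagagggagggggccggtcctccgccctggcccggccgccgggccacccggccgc
Psrc1, chr3:108383588-108383887, plus strand: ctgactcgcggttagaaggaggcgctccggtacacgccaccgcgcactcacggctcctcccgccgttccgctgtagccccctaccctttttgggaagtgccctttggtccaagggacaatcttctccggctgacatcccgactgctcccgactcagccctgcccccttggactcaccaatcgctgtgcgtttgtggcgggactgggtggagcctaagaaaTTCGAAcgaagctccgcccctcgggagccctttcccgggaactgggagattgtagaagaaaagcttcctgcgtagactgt

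The Cdkn1a promoter shown held 2 p53 half-sites, starting at -73 and -51 from the annotated start of that entry. The other Cdkn1a entry has its start further downstream (chr17:29093519-29093818) and held 0. The positions given thus hold for the upstream start only. Of the 7 members searched, which had 10 promoters between them, Rap2b alone held a half-site, GGGCATGCTC starting 34 bases after the start. Pard6g, Mtif3 and Zmat3 were not searched. The member search left out promoters on chr18, which the share over all promoters kept. Of all 32851 promoters, 8.36% held a half-site. The Orai2 promoter held 2 E-boxes, at -84 and -51, and 7.15% of all promoters held at least one. The Psrc1 promoter shown held TTCGAA at -30, and 19.2% of all promoters held that element. The CATG core was found in 3 of the 7 searched members (Btbd11, Dcxr and Rap2b, against 61.1% of all promoters), the CCAAT box in 5 (37.4%) and the GC box in 6 (35.7%). The GC content of the 10 member promoters ran from 50.7% for Dcxr to 78.3% for Cd276, with 57.3% and 52.0% for the 2 of Btbd11, and the median over all promoters was 52.7%. A match is a description of letters in this window and shows no binding, and p53 sites outside it were not searched.

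**Figure D2:**
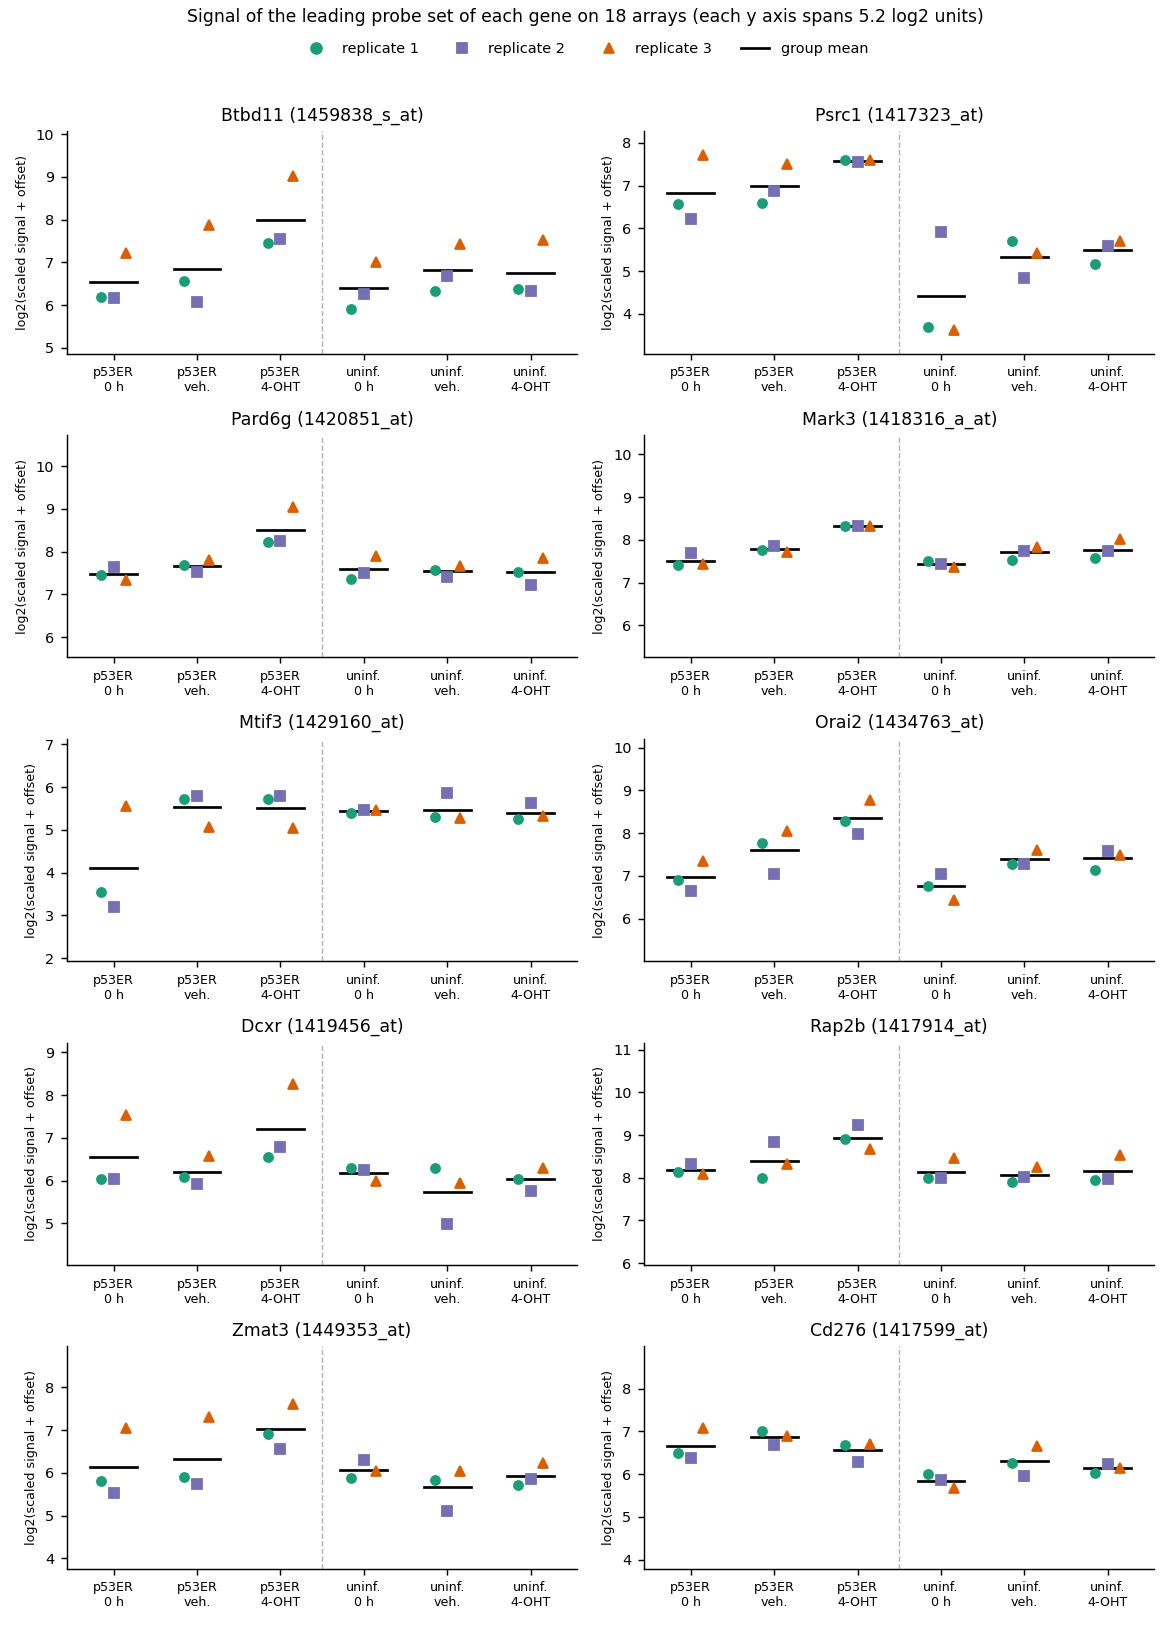
Level of the leading probe set of each gene on the 18 arrays (y axis, log2 of scaled signal plus offset, each panel spanning the same number of units), by group and replicate number, with bars at the group means. The 3 arrays of 4-OHT treated p53ER cells sit above all vehicle arrays for Psrc1, Pard6g and Mark3, and 2 of the 3 p53ER 0 h arrays are the lowest of all for Mtif3.

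Btbd11 showed the largest difference of the set. In p53ER cells its 3 arrays read 6.19, 6.18 and 7.23 at 0 h, 6.57, 6.07 and 7.86 with vehicle and 7.45, 7.54 and 9.02 with 4-OHT. In uninfected cells they read 5.91, 6.27 and 7.0 at 0 h, 6.33, 6.69 and 7.42 with vehicle and 6.38, 6.34 and 7.51 with 4-OHT. Replicate 3 was the highest array in every group, so the treated and vehicle arrays of p53ER cells overlapped, although within each replicate number the treated array was higher, by 0.88, 1.46 and 1.15. The group means gave a 2.25-fold difference against vehicle (log2 1.17, SE 0.52) and a 2.77-fold difference against 0 h (1.47). Without the treated replicate 3 the difference against vehicle was 0.66, and without vehicle replicate 3 it was 1.68. Vehicle stood 0.30 above 0 h, and the 4-OHT difference in uninfected cells was -0.07 (SE 0.52). The 2 other Btbd11 probe sets differed by 1.04 and 0.83 against vehicle in p53ER cells and by 0.23 and -0.03 in uninfected cells, and followed the leading one over the 18 arrays with r of 0.98 and 0.87.

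Pard6g and Mark3 both belong to the machinery of cell polarity and are described together. The Pard6g arrays of p53ER cells read 7.44, 7.64 and 7.34 at 0 h, 7.68, 7.52 and 7.80 with vehicle and 8.22, 8.25 and 9.04 with 4-OHT, and the 9 uninfected arrays lay between 7.21 and 7.90. All 3 treated p53ER arrays therefore stood above all 15 others. The difference was 0.83 against vehicle (SE 0.23, 1.78-fold) and 1.03 against 0 h (2.04-fold), with -0.01 and -0.06 for the same differences in uninfected cells. The dimmer second Pard6g probe set differed by 0.44 against vehicle in p53ER cells and by 0.39 in uninfected cells, so it did not set the arms apart.

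The Mark3 arrays of p53ER cells read 7.41, 7.69 and 7.44 at 0 h, 7.76, 7.87 and 7.71 with vehicle and 8.31, 8.33 and 8.32 with 4-OHT. The uninfected arrays read 7.51, 7.42 and 7.37 at 0 h, 7.54, 7.74 and 7.83 with vehicle and 7.56, 7.74 and 8.01 with 4-OHT. Treated p53ER arrays were above every other array, and in both arms all vehicle arrays were above all 0 h arrays, by 0.26 and 0.27 on average (SE 0.17). The 4-OHT difference against vehicle was 0.55 in p53ER cells (SE 0.17, 1.46-fold) and 0.07 in uninfected cells. Of the Mark3 difference of 0.81 against 0 h in p53ER cells, 0.26 was thus already present with vehicle, as it was in uninfected cells. The difference between the arms was 0.48 (SE 0.24).

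Orai2 was higher with vehicle than at 0 h in both arms and higher again with 4-OHT in p53ER cells, with more overlap than Mark3. In p53ER cells the arrays read 6.91, 6.64 and 7.34 at 0 h, 7.76, 7.04 and 8.05 with vehicle and 8.28, 7.97 and 8.78 with 4-OHT. In uninfected cells they read 6.77, 7.05 and 6.43 at 0 h, 7.28, 7.28 and 7.60 with vehicle and 7.15, 7.57 and 7.50 with 4-OHT. In p53ER cells treated replicate 2 lay below vehicle replicate 3 and vehicle replicate 2 lay below 0 h replicate 3, so neighbouring groups overlapped. Vehicle stood 0.65 above 0 h in p53ER cells and 0.63 above it in uninfected cells (SE 0.27 each), where the arrays of these groups did not overlap. On top of that, 4-OHT stood 0.73 above vehicle in p53ER cells, with same-number differences of 0.52, 0.94 and 0.72, and 0.02 above it in uninfected cells. The difference against 0 h was 1.38, a 2.60-fold one, and how it divided between vehicle and 4-OHT rested on single arrays. Without vehicle replicate 2 the vehicle part was 0.94 and the 4-OHT part 0.44, and without vehicle replicate 3 they were 0.44 and 0.95. The second Orai2 probe set followed the first (r = 0.92) with a difference of 0.46 against vehicle in p53ER cells and -0.06 in uninfected cells.

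Rap2b, Zmat3 and Dcxr were higher with 4-OHT in p53ER cells at every replicate number, with arrays that overlapped those of vehicle. The Rap2b arrays of p53ER cells read 8.13, 8.31 and 8.10 at 0 h, 8.0, 8.84 and 8.33 with vehicle and 8.92, 9.22 and 8.68 with 4-OHT, and the 9 uninfected arrays lay between 7.90 and 8.53. The treated arrays were above all 0 h arrays and above all uninfected arrays, while vehicle replicate 2 reached into their range. The difference was 0.55 against vehicle (SE 0.23) and 0.76 against 0 h, with 0.09 and 0.01 in uninfected cells. Without p53ER vehicle replicate 1 the difference against vehicle was 0.36.

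All 4 Rap2b probe sets were above vehicle after 4-OHT in p53ER cells, by 0.55, 0.38, 0.50 and 1.12 from the brightest to the dimmest, and their differences in uninfected cells were 0.09, 0.12, -0.16 and 0.38. Without vehicle replicate 1 the p53ER values were 0.36, 0.12, 0.30 and 0.56. They did not follow one another closely, with pairwise r over the 18 arrays from 0.19 to 0.85.

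The Zmat3 arrays of p53ER cells read 5.81, 5.53 and 7.04 at 0 h, 5.91, 5.74 and 7.31 with vehicle and 6.92, 6.56 and 7.61 with 4-OHT. In uninfected cells they read 5.89, 6.29 and 6.04 at 0 h, 5.82, 5.11 and 6.04 with vehicle and 5.71, 5.85 and 6.24 with 4-OHT. Replicate 3 was again the highest in each p53ER group and lay above treated replicates 1 and 2 even at 0 h. The difference was 0.71 against vehicle (SE 0.41, 1.63-fold), with same-number values of 1.01, 0.82 and 0.29, and 0.27 in uninfected cells. It was 0.42 without vehicle replicate 2 and 1.20 without vehicle replicate 3. The difference between the arms was 0.43 (SE 0.58), smaller than its standard error.

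Dcxr arrays of p53ER cells read 6.04, 6.04 and 7.54 at 0 h, 6.09, 5.93 and 6.59 with vehicle and 6.57, 6.78 and 8.27 with 4-OHT. The uninfected arrays ran from 5.99 to 6.29 at 0 h, from 4.99 to 6.29 with vehicle and from 5.76 to 6.29 with 4-OHT. The enzyme's transcript was 1.00 higher against vehicle in p53ER cells (SE 0.43, 2.0-fold) and 0.66 higher against 0 h, and 0.29 and -0.14 in uninfected cells. Vehicle minus 0 h was -0.34 in p53ER and -0.43 in uninfected cells. The result leaned on replicate 3: without the treated replicate 3 the difference fell to 0.47 against vehicle and 0.13 against 0 h.

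In its leading probe set Psrc1 was set apart by cell arm more than by treatment. The p53ER arrays read 6.57, 6.22 and 7.72 at 0 h, 6.59, 6.87 and 7.51 with vehicle and 7.59, 7.56 and 7.59 with 4-OHT. The uninfected arrays read 3.70, 5.90 and 3.61 at 0 h, 5.70, 4.85 and 5.42 with vehicle and 5.17, 5.59 and 5.71 with 4-OHT. Every p53ER array stood above every uninfected array, also before treatment, and the share of all probe sets in that state was not counted. At 0 h the arms differed by 2.43 (SE 0.48, limma adjusted p = 0.888), where uninfected replicates 1 and 3 were much lower than replicate 2 and a larger offset gave 1.86, and with vehicle by 1.66 (adjusted p = 1.0). Without uninfected 0 h replicate 2, 1 of the arrays that lay apart, the 0 h difference was 3.18 (limma adjusted p = 0.0031), and without replicate 3 of every group it was 1.59. With 4-OHT the 3 arrays of p53ER cells were above those of vehicle by 0.59 (SE 0.48), but replicate 3 was already at 7.72 at 0 h and did not go higher, with same-number differences of 1.00, 0.69 and 0.08 against vehicle. Without vehicle replicate 1 the mean difference was 0.39. Against 0 h the 4-OHT difference was 0.75 in p53ER cells and 1.09 in uninfected cells, and the gap between these was not tested.

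The 3 Psrc1 probe sets disagreed. The second one also showed the arms apart with vehicle, by 1.64, but at 0 h by only 0.65, with arrays that overlapped. In it 4-OHT stood 1.10 above vehicle in uninfected cells (SE 0.49, 3 arrays above 3), with a vehicle array as low as 2.72, and 0.42 above it in p53ER cells. The third was near the offset, with a mean of 3.5, and followed neither (r = -0.25 and -0.17). Its difference between the arms at 0 h was -0.67. In the leading probe set the difference of the 4-OHT effect between the arms was 0.43 (SE 0.68), smaller than its standard error.

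Mtif3 was higher against 0 h and not against vehicle. Its p53ER arrays read 3.56, 3.19 and 5.55 at 0 h, 5.72, 5.80 and 5.07 with vehicle and 5.72, 5.80 and 5.03 with 4-OHT, and the 9 uninfected arrays lay between 5.26 and 5.86. The difference against 0 h was 1.42 with 4-OHT and 1.43 with vehicle (SE 0.44 each), and 4-OHT against vehicle gave -0.01. Same-number differences against vehicle were 0.00, 0.00 and -0.04. What differed was the 0 h group, in which replicates 1 and 2 were below every other array and replicate 3 was at the level of the rest. Without p53ER 0 h replicate 3 the differences against 0 h were 2.14 with 4-OHT and 2.16 with vehicle. Only 1 probe set reads this gene, so the low 0 h values had no second reading.

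Cd276 was not higher with 4-OHT. The p53ER arrays read 6.48, 6.38 and 7.09 at 0 h, 7.0, 6.69 and 6.88 with vehicle and 6.68, 6.27 and 6.70 with 4-OHT, and the treated array was lower than vehicle at all 3 replicate numbers, with differences of -0.32, -0.42 and -0.18. The mean difference was -0.30 against vehicle (SE 0.24) and -0.10 against 0 h. The uninfected arrays read 6.0, 5.86 and 5.68 at 0 h, 6.26, 5.96 and 6.67 with vehicle and 6.03, 6.24 and 6.14 with 4-OHT. As for Psrc1, the arms differed more than the treatments: p53ER arrays were above uninfected ones at 0 h by 0.80 (SE 0.24, limma adjusted p = 0.995) and with vehicle by 0.56 (adjusted p = 1.0), with no overlap of arrays in either. With vehicle the nearest arrays of the arms read 6.69 and 6.67. How many of all probe sets had no overlap between the arms was not counted.

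**Figure D3:**
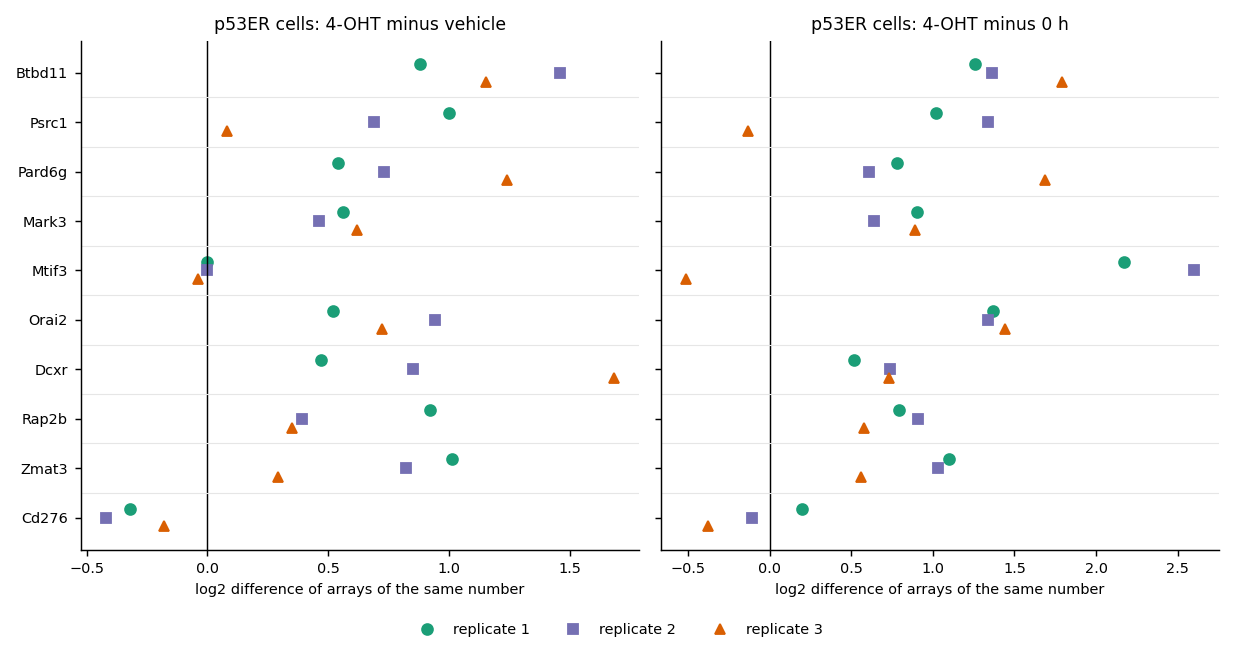
Log2 difference of arrays of the same replicate number in p53ER cells, 4-OHT minus vehicle (left) and 4-OHT minus 0 h (right), for the leading probe sets. On the left 8 genes have all 3 points right of 0 and Cd276 has all 3 left of it; on the right Mtif3 has points at 2.17, 2.60 and -0.51.

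Counted over replicate numbers, 8 of the 10 genes were higher with 4-OHT in all 3 vehicle pairs of p53ER arrays, a state found for 14.3% of all probe sets, 1 was lower in all 3 (Cd276) and 1 was mixed (Mtif3). In uninfected cells all 10 were mixed, and 12.7% of all probe sets were higher in all 3 pairs. Against 0 h 7 genes were higher in all 3 pairs in p53ER cells (13.0% of all probe sets) and 4 in uninfected cells (10.3%). Vehicle was above 0 h in all 3 pairs for 3 genes in p53ER cells (9.16%) and 4 in uninfected cells (9.33%). Counted without pairs, all treated arrays of p53ER cells were above all vehicle arrays for 3 genes (Psrc1, Pard6g and Mark3), a state found for 5.01% of all probe sets, and above all 0 h arrays for 5 (Btbd11, Pard6g, Mark3, Orai2 and Rap2b), against 4.53%. These counts too use the contrasts that chose the genes.

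The comparisons in uninfected cells were not used to choose the genes, and they carry the test of 4-OHT without p53ER. No probe set on the array passed for 4-OHT against vehicle (0%), where the unadjusted p was under 0.05 for 974 probe sets of all and 1 of the 19 members, the second probe set of Psrc1. No leading probe set had all treated arrays above all vehicle arrays, and 3.82% of all probe sets did. The 10 leading differences ran from -0.16 for Cd276 to 0.29 for Dcxr, each smaller than its standard error. The 95% confidence interval of the uninfected difference ran from -1.17 to 1.03 for Btbd11, from -0.48 to 0.46 for Pard6g, from -0.28 to 0.42 for Mark3 and from -0.54 to 0.58 for Orai2, and each lay below the p53ER difference of that gene. For Psrc1 (-0.83 to 1.17), Dcxr (-0.61 to 1.18), Rap2b (-0.38 to 0.56), Zmat3 (-0.58 to 1.13), Mtif3 and Cd276 the interval held the p53ER value. These standard errors and intervals are from the fit without the replicate block. They therefore include any spread that arrays of the same replicate number share. The p53ER values set beside these intervals are those the genes were chosen on, and their own standard errors are left out. Where an interval lay is therefore a description and no test of a difference between the arms.

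Time without active p53ER was tested by vehicle or 4-OHT against 0 h in uninfected cells. For 4-OHT against 0 h no probe set passed (0%, smallest adjusted p = 0.183 by limma, 2740 with an unadjusted p under 0.05, of which 4 were members), and for vehicle against 0 h 1 passed (0.00222%), which was not a member. All uninfected 4-OHT arrays were above all 0 h arrays for Mark3, Orai2 and Cd276, against 3.57% of all probe sets. All uninfected vehicle arrays were above all 0 h arrays for Mark3 and Orai2, against 3.27%. The values were 0.34 and 0.27 for Mark3 and 0.65 and 0.63 for Orai2, with limma adjusted p from 0.737 to 0.825. The largest were those of Psrc1, at 1.09 with 4-OHT and 0.92 with vehicle (SE 0.48, limma adjusted p = 0.809 and 0.763), with arrays that overlapped, and they rested on the 0 h arrays: without replicate 2 they were 1.83 and 1.67, and without replicate 3 they were 0.69 and 0.52. In p53ER cells vehicle against 0 h gave no passing probe set (0%, with 1731 of all and 2 members at an unadjusted p under 0.05), and Mark3 was the 1 member with all vehicle arrays above all 0 h arrays, against 2.90% of all probe sets.

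The difference of the 4-OHT effect between the arms, taken against vehicle, was positive for 9 of the 10 leading probe sets with a median of 0.47. Over all genes it was positive for 51.2%, with a median of 0.01. Among the members its highest values were those of Btbd11 (1.24, SE 0.73), Pard6g (0.85, SE 0.32), Orai2 (0.71, SE 0.38) and Dcxr (0.71, SE 0.61). It was 0.46 for Rap2b (SE 0.32), 0.05 for Mtif3 and -0.14 for Cd276. Single arrays moved several of these: without p53ER 4-OHT replicate 3 it was 0.73 for Btbd11 and 0.18 for Dcxr, without p53ER vehicle replicate 1 it was 0.27 for Rap2b and 0.23 for Psrc1, and without p53ER vehicle replicate 2 it was 0.42 for Orai2 and 0.14 for Zmat3. This difference contains the treated p53ER arrays that the choice used, and it passed for 1 probe set of the array (0.00222%) and for no member. With the 3 outlying arrays removed, the set had differences against vehicle in p53ER cells of 1.03 for Btbd11, 0.84 for Pard6g, 0.54 for Mark3 and 0.80 for Orai2, and of 0.39 for Psrc1, 0.36 for Rap2b and 0.50 for Zmat3. Against 0 h the values were 1.16 for Dcxr and 2.14 for Mtif3.

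**Figure D4:**
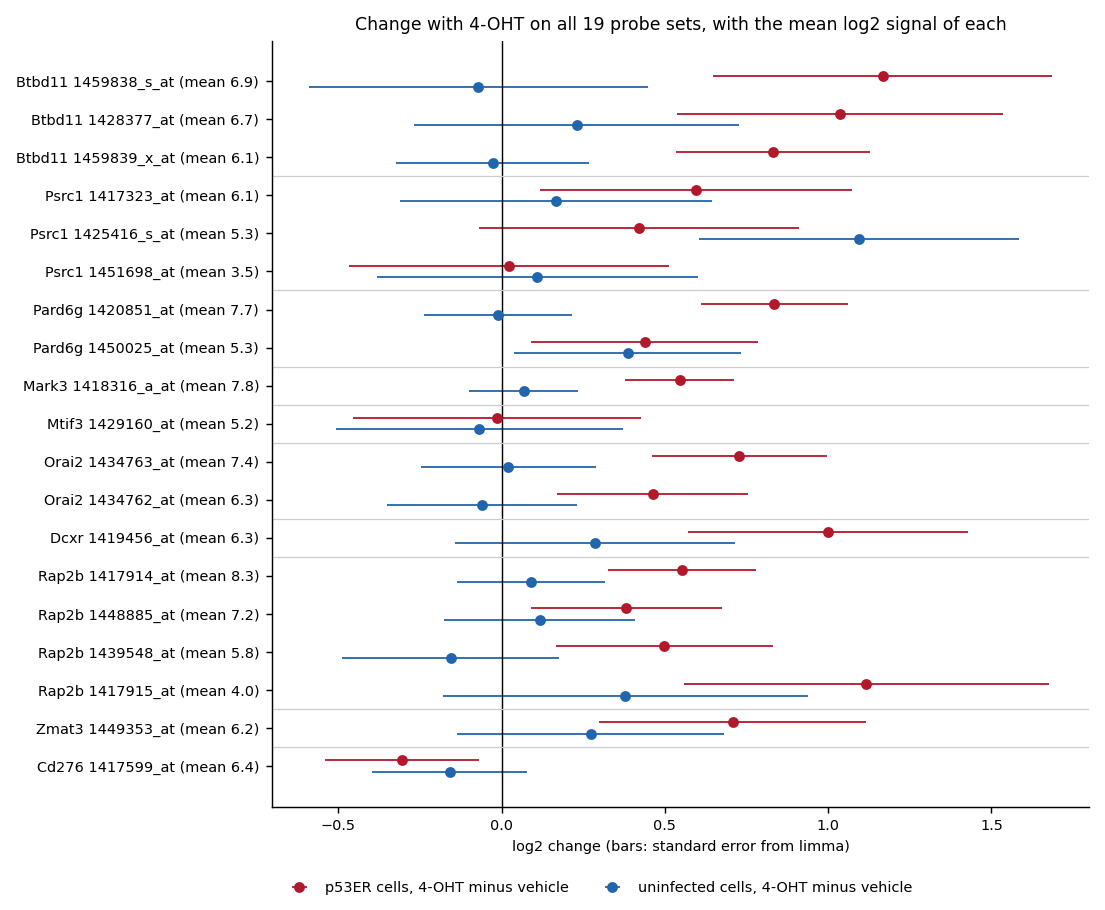
Log2 change with 4-OHT against vehicle (x axis) on all 19 probe sets, in p53ER and in uninfected cells, with bars for the standard error from limma and the mean level of each probe set beside its name. The 3 Btbd11 and 2 Orai2 probe sets agree within the gene, while the second Psrc1 probe set lies at 1.10 in uninfected cells.

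The partners of these genes were read from lists of related genes, each gene by its brightest probe set. Of 49 p53 targets on the array, with the members left out, 42 were above their vehicle level after 4-OHT in p53ER cells and 7 below. The median was 0.40, and 51.3% of all genes were higher. In uninfected cells 17 were higher with a median of -0.07, beside 50.2% of all genes. The lists were chosen with earlier results of these data known, so these counts are a description. Past the limma threshold were Mdm2 and Pmaip1, the latter 3.38 higher (SE 0.50, adjusted p = 0.0230), and 5 passed with the replicate block. No gene of the other lists passed in either arm. Among 15 polarity and MARK kinase genes, the partners of Pard6g and Mark3, 5 were higher with 4-OHT in p53ER cells and the median was -0.12. The 2 largest values were -0.57 for Pard6b (SE 0.43), a paralog of Pard6g at a level of 3.50, and 0.43 for Llgl2 (SE 0.32), another polarity protein.

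Among 11 genes of store-operated calcium entry, where Stim proteins sense the calcium store and open Orai channels, 5 were higher and the median was -0.02. Cracr2b, a calcium channel regulator, was 1.27 higher in p53ER cells (SE 0.45) and 1.17 higher in uninfected cells, and Stim2 was -0.33. Of 14 Rap GTPase genes 12 were higher, beside 51.3% of all genes, with a median of 0.17 and the largest values at 0.56 for the exchange factor Rapgef6 (SE 0.48) and 0.54 for Rap1a (SE 0.50). Vehicle was itself below 0 h for 11 of these 14, with a median of -0.24, and against 0 h 9 were higher with 4-OHT (median 0.06). Of 9 mitochondrial translation genes 3 were higher (median -0.07), of 8 B7 family and related genes 3 (0.00), of 9 pentose and carbonyl reductase genes 3 (-0.08), of 15 spindle and microtubule genes 5 (-0.09), and of 11 BTB and zinc finger relatives 6 (0.38). Against 0 h 2 of those 11 were higher (median -0.14). Esr1, the gene of the receptor part of the fusion, was read at -0.37 with 4-OHT in p53ER cells (SE 0.86). Whether its probe set reads the fusion transcript could not be worked out, and Trp53, the gene of the p53 part, was not matched to a probe set. The Esr1 level differed between the arms. The p53ER arrays read from 6.88 to 10.38 and the uninfected arrays from 2.92 to 4.77, with differences of 3.80 at 0 h (limma adjusted p = 0.937) and 4.34 with vehicle (adjusted p = 1.0). Within the p53ER groups replicate 3 was the highest, at 9.52 at 0 h, 10.38 with vehicle and 9.33 with 4-OHT, against 6.88 to 7.77 in the other arrays. Replicate 3 was also the highest array of each p53ER group for Btbd11, Zmat3, Dcxr and Orai2, and for the reference targets Mdm2 and Cdkn1a. For the leading probe sets of Btbd11, Mdm2 and Cdkn1a it was the highest in each uninfected group too. There Esr1 in replicate 3 read 4.5 at 0 h, 2.92 with vehicle and 3.04 with 4-OHT. The part of the Esr1 level in these values was not tested.

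The genes whose levels over the 18 arrays were most like each member, among 10906 genes, were found by Pearson correlation, which is given as a description because the arrays share groups, treatment and replicate numbers. Mdm2 was among the nearest 2 for Mark3 (r = 0.83) and Rap2b (0.71), and Tmem19 was the nearest for both Mark3 (0.84) and Orai2 (0.87). Phlda3 (0.81) was near Psrc1 after Mycn (0.84), and Ddit4l (0.88) was near Pard6g beside Nlrc5 (0.88). Btbd11 was most like Wdr61 and Sh3bgrl2 (0.93 each), Dcxr most like Fam102a (0.89) and Parp11 (0.86), and Zmat3 most like Micall1 (0.87) and Fam102a (0.86). Etv3 (0.71) was the nearest to Rap2b and Unc5b (0.85) the second for Orai2. Cd276 was most like Foxo3 (0.85) and Rtkn (0.84), with an r of 0.33 to Mdm2, and Mtif3 was most like Tbx19 (0.80) and Adad2 (0.75), with an r of 0.08 to Mdm2.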

How the data were processed

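RNA of 18 samples was read on Affymetrix Mouse430_2 arrays. The authors deposited linear MAS5 signal intensities, per the submitters' processing notes, which give no software version. The 10 genes, the gene lists and the comparisons were chosen with earlier results of these data known.

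Arrays were brought to 1 shared 2% trimmed mean (78.5), and log2(intensity + 3.93) was fitted (offset 5% of that mean, which shrinks changes of dim probe sets) with limma 3.58.1 in R 4.3.3: 6 group means, 18 arrays, 12 residual degrees of freedom, trended and robust variance prior, 9 comparisons, two-sided p-values adjusted by Benjamini-Hochberg over 45101 probe sets, threshold 0.05. With 3 arrays against 3 the smallest exact permutation p is 0.1. The number of arrays limits the precision.

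Probe sets were named through the platform annotation: 34958 had 1 gene, 932 several and 9211 none listed; 34754 matched a RefSeq gene of GRCm38.p6 by Entrez ID, all 10 members included. Genes named were the members, Mdm2 and Cdkn1a, list genes past the threshold or else the 2 largest changes (some are not reported here), and the 2 genes most like each member among the upper 60% by mean.

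Arrays of 1 replicate number deviated from their group means together for 4-OHT and vehicle (r 0.15 to 0.31) and 4-OHT and 0 h (0.15 to 0.30) in p53ER cells and for 4-OHT and vehicle in uninfected cells (0.14 to 0.41), so the numbers were taken to pair these samples, from the data and not from the labels; in the other comparisons at least 1 pair was at or below 0.06. The fit with the replicate number as a block was an alternative, and the standard errors and intervals given are from the fit without it. The pipeline was tested on 10 simulated data sets for 4-OHT against vehicle in p53ER cells, where 5.2% of calls were false. Other alternatives were a larger offset (15.7), no offset, quantile normalization, 2 filters, only the groups compared, a plain variance prior, array weights and left-out arrays. One, which joins the block with leaving out 3 arrays, was chosen after seeing the data.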

Additional observations from a re-analysis of the deposited data

Results flagged for a closer look

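The third brightest Rap2b probe set differed in opposite directions in the arms. With 4-OHT against vehicle it was 0.50 higher in p53ER cells and at -0.16 in uninfected cells, a difference of 0.65. Against 0 h it was 0.40 higher in p53ER cells and at -0.28 in uninfected cells, a difference of 0.68. The second brightest Rap2b probe set was 0.46 higher against 0 h in p53ER cells and at -0.15 in uninfected cells, a difference of 0.61. In each case all 3 treated p53ER arrays lay above the mean of their reference group and all 3 treated uninfected arrays lay below theirs. The p53ER changes are among those the genes were chosen on, so the differences between the arms are a description; the one against vehicle did not pass in limma (adjusted p = 1.0) and those against 0 h were not tested. The leading Rap2b probe set was at 0.09 against vehicle and 0.01 against 0 h in uninfected cells.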

How the results depend on the processing

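No leading probe set of a member passed in the main fit, so a reversal of a passing member could not occur. The direction of the other passing probe sets was not followed over the settings. The number of passing probe sets moved, and so did several member values. Some that did not pass crossed 0: p53ER vehicle against 0 h ran from -0.31 to 0.85 for Zmat3, -0.21 to 0.79 for Btbd11 and -0.59 to 0.22 for Dcxr, and 4-OHT against 0 h from -0.23 to 0.12 for Cd276. Beyond the spread between replicates, Mtif3 against 0 h moved under 4 of 18 settings (0.92 to 2.39 with 4-OHT). In the p53ER comparisons of 4-OHT with vehicle and with 0 h (4 and 7 passing), these numbers were 11 and 24 with the replicate block, 2 and 3 with no offset, 2 and 2 with 1 probe set per gene, 0 and 2 with only the groups compared and 1 and 1 without trend and robustness. Against 0 h alone they were 4 with quantile normalization, with the upper 60% of probe sets and with replicate 3 of every group left out, and 13 with array weights. For the difference of the 4-OHT effect (1 passing) they were 3 with the replicate block, 2 with the larger offset and without every replicate 3, and 0 with 1 probe set per gene, only the groups compared, no trend or the 3 arrays left out. For uninfected vehicle against 0 h (1 passing) they were 0 with quantile normalization, no offset, both filters, array weights, the 3 arrays left out and replicate 3 left out. Uninfected 4-OHT against 0 h gave 1 with no trend, the arms at 0 h gave 1 without the 3 arrays or without every replicate 3, and the arms with vehicle gave 1 under both filters and without every replicate 3. With the 3 arrays left out and the replicate block, chosen after seeing the data, 10 passed against vehicle, 26 against 0 h, 3 in the difference, 3 and 2 in uninfected 4-OHT and vehicle against 0 h, and 1 between the arms at 0 h. The block moved no other count of passing probe sets.

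Without the 3 arrays the members' median against 0 h was 1.17 with 4-OHT and 0.57 with vehicle in p53ER cells, in place of 0.85 and 0.21. Leaving out 1 array at a time gave 1 (without p53ER 4-OHT replicate 3) to 9 (without vehicle replicate 3) passing against vehicle in p53ER cells, 1 (without p53ER 0 h replicate 1) to 5 (without 4-OHT replicate 2) against 0 h, 0 to 3 for the difference of the 4-OHT effect, and 0 to 1 in each uninfected comparison, in p53ER vehicle against 0 h and between the arms at 0 h. The members' median then ran from 0.52 to 0.88 against vehicle and from 0.75 to 1.17 against 0 h in p53ER cells, from 0.15 to 0.51 for p53ER vehicle against 0 h, from 0.37 to 0.79 for the difference, from -0.01 to 0.34 between the arms at 0 h and from 0.21 to 0.46 with vehicle. In uninfected cells it ran from -0.05 to 0.16 for 4-OHT against vehicle, from -0.02 to 0.23 for 4-OHT against 0 h and from 0.09 to 0.24 for vehicle against 0 h. The cause of these shifts was not tested. Among the members in the uninfected comparisons, Psrc1 with 4-OHT against 0 h passed with the 3 arrays left out and the block (1.93, limma adjusted p = 0.049). Its 0 h group then held only replicates 1 and 3, at 3.70 and 3.61. The other Psrc1 probe sets gave 0.27 and -0.26 with the 3 arrays left out and no block.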
